A study of Homo sapiens with 6 samples.

Results

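The CpGs described here lie within 3 kb of the transcription starts of 5 GATA transcription factor genes, GATA2, GATA3, GATA4, GATA5 and GATA6, in PC-3 cells. The set was chosen with earlier results of these data known, and within it each CpG entered by position and read depth alone. A CpG belonged when at least 10 reads covered it in 2 or more libraries of each treatment. That gave 385 CpGs of the 686608 that met the same depth rule in the whole genome (0.0561%). They divide into 58 at GATA2, 41 at GATA3, 16 at GATA4, 159 at GATA5 and 111 at GATA6. PC-3 is an established line from a human prostate carcinoma. Cells received 160 µM S-adenosylmethionine (SAM), the methyl donor of the DNA methyltransferases, or phosphate-buffered saline (PBS, the control) for 5 days, and each treatment has 3 libraries of bisulfite-converted genomic DNA. No other treatment or genetic change is given for either group, and a methylation file holds no expression markers against which the cell line label could be checked. The files sum to 33056018 to 183523792 reads over listed cytosines per library. SAM replicate 2 and control replicate 2 were the shallowest and listed 283 and 259 of the 385 CpGs, where the other 4 libraries listed 378 to 385. Whether replicates are separate cultures is not stated in the labels, so p-values measure only the spread between these libraries, which may be technical.

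GATA factors are zinc-finger proteins that bind DNA at short sites built around the letters GATA, often in chromatin that other factors cannot yet reach. GATA2 and GATA3 are best known from blood and epithelial lineages, and GATA4, GATA5 and GATA6 from heart and endoderm. In prostate cells GATA2 works beside the androgen receptor, and GATA3 is a factor of luminal epithelium. Dense CpG methylation over a gene's start usually goes with silence of that gene, whereas methylation inside the gene body does not. Bisulfite sequencing reads a methylated cytosine as C and an unmethylated one as T, so a level is the percent of reads with C. An intermediate level cannot tell a mixture of cells from a mixture of alleles.

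The starts of the 4 genes other than GATA4, in hg19, were GATA2 at 128207434 on chromosome 3 (minus strand), GATA3 at 8096667 on chromosome 10 (plus), GATA5 at 61051026 on chromosome 20 (minus) and GATA6 at 19749416 on chromosome 18 (plus). Library values are listed in the order of replicates 1, 2 and 3 of each treatment. Negative distances below are bases before the start along the gene. No hg19 gene annotation was used, so exons and introns are not assigned. Promoter sequences from RefSeq (GRCh38.p14) matched 3 of the 5 genes by symbol, GATA2, GATA3 and GATA6. Over the length of the table's entries (250 bases before to 50 after the start), every listed CpG of the hg19 files fell on a CG of the RefSeq sequence at 1 shift between the builds, 10 of 10 for GATA2, 13 of 13 for GATA3 and 5 of 5 for GATA6, and no other shift near the gene placed all listed CpGs on a CG. The 250 bases before the RefSeq start are shown. Only some of their CG were listed by any library, and the listed ones had low levels. Capitals mark each CG that at least 1 library listed, and the last base of the GATA6 sequence is the C of a listed CG that runs past its end.

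GATA2, chr3:128488531-128488780, minus strand: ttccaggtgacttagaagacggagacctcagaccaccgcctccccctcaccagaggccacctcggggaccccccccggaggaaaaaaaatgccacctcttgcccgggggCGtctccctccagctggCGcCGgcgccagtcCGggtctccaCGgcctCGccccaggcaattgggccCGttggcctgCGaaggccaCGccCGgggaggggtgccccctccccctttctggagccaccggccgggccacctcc
GATA3, chr10:8054438-8054687, plus strand: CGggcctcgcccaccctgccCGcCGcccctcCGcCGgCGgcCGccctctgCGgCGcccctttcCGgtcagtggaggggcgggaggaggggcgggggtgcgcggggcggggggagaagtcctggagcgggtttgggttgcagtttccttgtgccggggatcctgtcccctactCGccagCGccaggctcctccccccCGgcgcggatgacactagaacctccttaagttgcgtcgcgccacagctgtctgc
GATA6, chr18:22169339-22169588, plus strand: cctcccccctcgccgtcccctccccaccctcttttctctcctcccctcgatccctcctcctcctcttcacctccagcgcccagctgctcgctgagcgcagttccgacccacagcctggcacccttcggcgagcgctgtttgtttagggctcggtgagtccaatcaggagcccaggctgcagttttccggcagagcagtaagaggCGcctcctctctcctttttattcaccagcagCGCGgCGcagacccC

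The GATA2 sequence holds 18 CG, of which 10 were listed, all at 0% in each of the 1 to 3 libraries that listed them, and none met the depth rule. The GATA3 sequence holds 26 CG, and its 13 listed CpGs had mean levels of 0 to 5.74%, of which only 4 met the depth rule. The GATA6 sequence holds 16 CG, and its 4 listed CpGs, all from base 205 to base 241 of it, had mean levels of 0 to 0.521%. Over the 35116 promoter sequences of the same table the median was 11 CG in these 250 bases. RefSeq starts lie 61 bases after, 16 bases before (-16) and 134 bases after the starts used here, in that order. A further GATA3 start in RefSeq lies at -1063, within the window. The 250 bases before it hold 30 CG, of which 4 were listed, all at 0%, and none met the depth rule. The letters GATA or TATC occur in none of these 3 sequences, where 45.6% of the promoter sequences hold them. GGGCGG or CCGCCC, the core letters that SP-family factors bind, occurs 5 times in the GATA3 sequence and in neither of the others, and 42.6% of promoters hold it. These are matches of letters and not measured binding sites.

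Across the 385 CpGs, 139 stood under 20% methylation, 87 between 20 and 80% and 159 over 80%, as the mean over the libraries that listed them. The shares were 36.1%, 22.6% and 41.3%, against 55.1%, 13.4% and 31.5% over the 686608 CpGs of the genome. The 5 genes did not share 1 pattern. GATA2 was unmethylated over most of its window. GATA3 had an unmethylated stretch before its start and GATA6 one after its start, each with methylated CpGs farther out on both sides, GATA5 was partly methylated across its start, and GATA4 was sampled at 16 CpGs only.

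**Figure D1:**
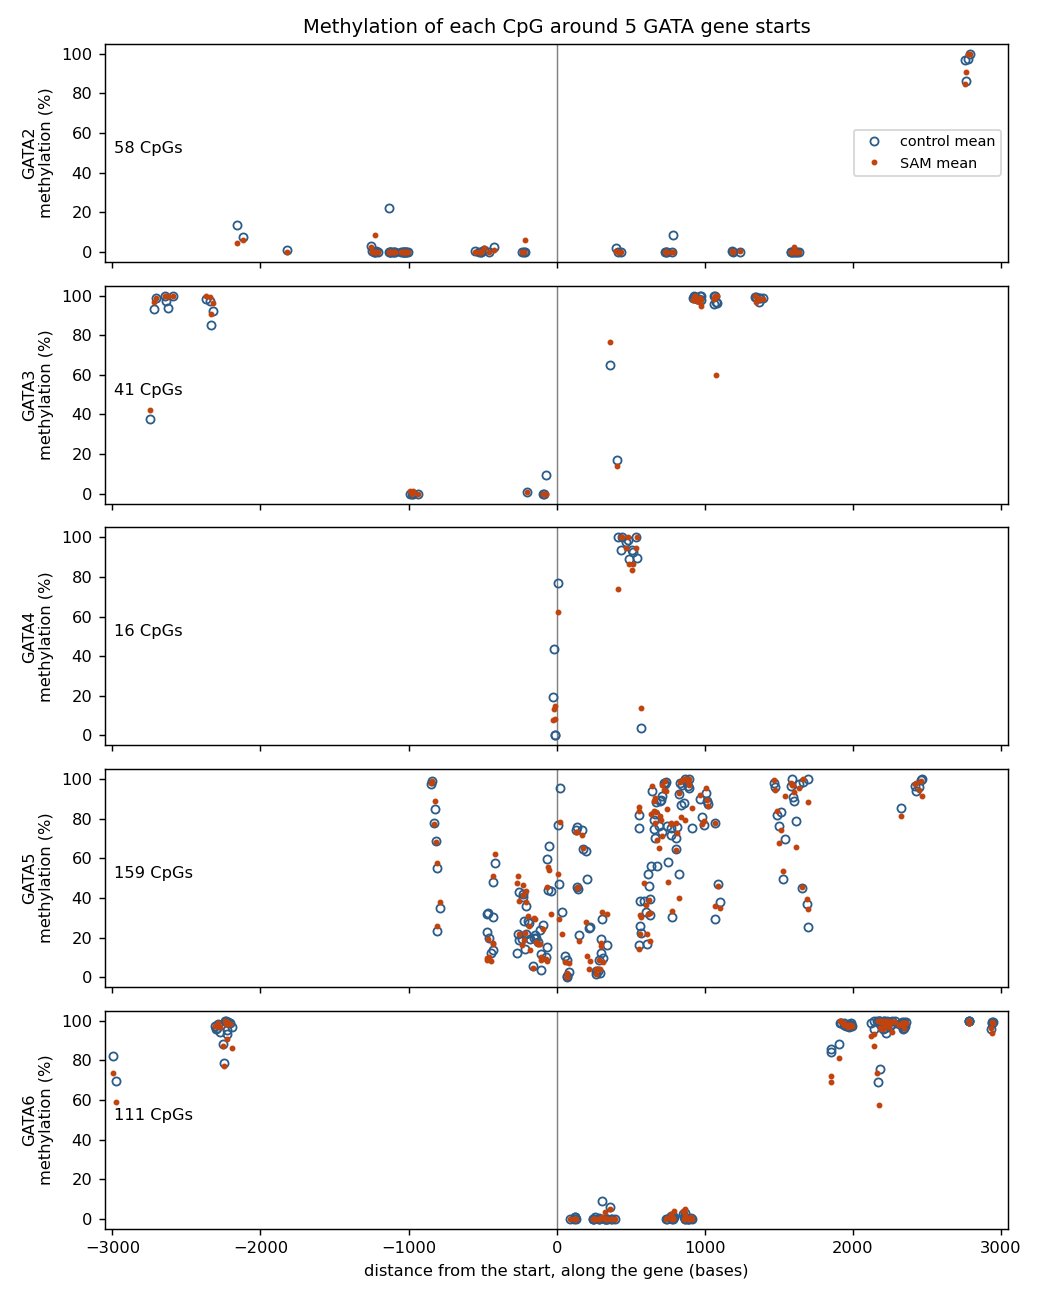
Methylation (percent of reads with C, y axis) of each of the 385 CpGs against its distance from the gene's start in bases (x axis), 1 panel per gene. Open circles are control means and dots SAM means over the libraries that listed the CpG. GATA2 is near 0 at most CpGs up to 1640 bases after the start (the highest group mean there is the control mean of 22.2% at -1132), most CpGs of GATA3 and GATA6 lie near 0 or near 100, and those of GATA5 spread from 0 to 100%.

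At GATA2, 54 consecutive CpGs from -2157 to 1640 were all under 20%, the highest at 11.1%. After a gap of 1118 bases with no CpG of sufficient depth, the 4 CpGs from 2758 to 2795 stood at 88.5 to 100%. The 8 CpGs from -1051 to -1006, listed in every library, had no methylated read among 3219. Counting alone allows up to 1.03, 0.843 and 0.208% with SAM and 0.551, 1.52 and 0.769% in controls, taking 3 reads as the limit that a count of 0 allows. Such limits, like all read counts here, cover counting error only, because copied reads are not independent molecules. The 4 methylated CpGs averaged 88.0, 100 and 93.6% with SAM and 98.2, 96.5 and 91.1% in controls. The groups overlapped there, and the unmethylated and methylated stretches stood apart in every library.

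At GATA3, the 8 CpGs from -992 to -70 were at 0 to 5.74% over the 5 libraries that listed them. Their means were 0% in SAM replicate 1 and 0.801% in SAM replicate 3, and 0.0899, 1.81 and 2.06% in controls. SAM replicate 2 listed none of them. Upstream, the first CpG, at -2749, stood at 40.1%, and 10 CpGs from -2718 to -2320 stood at 88.5 to 100%, and 20 CpGs from 922 to 1393 at 82.0 to 100%. Between the start and these downstream CpGs lay a CpG 358 bases after the start at 70.8% and another 406 bases after it at 15.4%. So the region before the GATA3 start used here was read as unmethylated and its flanks as methylated. These 8 CpGs lie after the further RefSeq start at -1063. None of the 8 CpGs before the start was listed in all 6 libraries, and the window mean given below therefore describes only the flanks.

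GATA6 also had a low stretch between methylated ones, but after its start. No CpG between -2192 and 88 met the depth rule, a gap of 2280 bases that takes in the start itself. All 39 CpGs from 88 to 911 bases after the start were at 0 to 5.51%, with 194 methylated of 23125 reads over the 6 libraries. Their means were 1.02, 1.08 and 0.245% with SAM and 0.961, 0.845 and 0.445% in controls. From 1910 to 2946, 53 consecutive CpGs stood at 81.5 to 100%, and 15 CpGs from -2305 to -2192 stood at 78.0 to 100%. Between the low and the high stretch lay 940 bases with no CpG of sufficient depth and then 2 CpGs, 1851 and 1854 bases after the start, at 77.5 to 78.0%. The 2 CpGs farthest upstream, at -2993 and -2974, stood at 63.3 to 77.0%. SAM replicate 2 listed 31 of the 39 low CpGs and control replicate 2 listed 19. The 39 were low with both treatments.

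GATA5 held the most CpGs and the most intermediate ones, 78 of 159 (49.1%) between 20 and 80%, against 13.4% over the genome. Its CpGs changed class 63 times along the window, giving 64 runs with at most 9 CpGs each, where GATA2 with 58 CpGs gave 2 runs and GATA6 with 111 gave 7. Among GATA5 neighbours at most 20 bases apart, 36 of 140 pairs (25.7%) differed by more than 20 points. The share was 1.10% at GATA6 and 7.59% over the genome. Restricted to pairs with both CpGs between 20 and 80%, it was 27.3% at GATA5 and 24.2% over the genome, so neighbours at GATA5 differed about as often as those of other intermediate sequence.

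In part of the GATA5 window the uneven levels recurred from library to library. The 7 CpGs from 128 to 181 bases after the start, read by 60 to 1198 reads in each library, show this best. The CpG at 128 ranged from 70.1 to 77.4% over the 6 libraries and that at 135 from 72.9 to 77.1%. The next, at 139 and 141, ranged from 43.0 to 47.6% and from 41.5 to 47.5%, and that at 150 from 17.7 to 23.3%. Those at 170 and 181 were back at 68.7 to 77.1% and 63.4 to 67.8%. Mean levels thus differed by 54.8 points over 15 bases, while no CpG of the 7 differed by more than 8.37 points between libraries. This stretch was singled out after its values were seen. Some other GATA5 CpGs listed in all 6 libraries differed widely between them. The CpG at 630 ranged from 3.57 to 81.6%, that at 617 from 0 to 78.0% and that at -49 from 6.67 to 84.25%. Across the 99 GATA5 CpGs listed in all 6 libraries, Pearson's r between libraries was 0.755 to 0.959. This describes CpGs of shared reads, not independent replicates. It was 0.956 to 0.981 over the 336571 such CpGs of the genome and 0.995 to 0.998 over 58 at GATA6, where most CpGs are near 0 or 100. At the 45 intermediate GATA5 CpGs the median SD over libraries was 9.39 points, where counting error gives 4.82. For the 45007 intermediate CpGs of the genome these were 11.3 and 5.996 points.

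By distance, GATA5 was lowest within 500 bases of its start, where 68 CpGs averaged 27.7%. The 25 CpGs from -234 to -38 averaged 26.5%, with 32.1, 18.7 and 25.5% with SAM and 22.6, 24.7 and 32.9% in controls, each over the CpGs it listed. The 16 common CpGs (listed in all 6 libraries) from 0 to 250 bases after the start averaged 32.7%, with single CpGs at 0.347 to 74.6%. The 9 common CpGs in the bin from 250 to 500 bases after the start were at 10.2%. Levels were higher further into the gene but did not climb steadily. Common CpGs averaged 62.5% from 500 to 750 bases after the start (27 CpGs), 89.3% from 750 to 1000 (5 CpGs) and 48.3% from 1000 to 1250 (4 CpGs). They averaged 92.5% from 1250 to 1500 (3 CpGs), 65.4% from 1500 to 1750 (7 CpGs) and 96.6% from 2250 to 2500 (5 CpGs). These bins leave out CpGs not listed in every library. The 7 CpGs from 755 to 816, most of them left out, stood at 32.1 to 76.4%. The 3 from 1010 to 1020, all left out, stood at 86.9 to 94.6%. The bin means thus depend on which CpGs were deep in all libraries. Upstream, the 8 CpGs from -846 to -788 ranged from 24.5 to 99.1%. GATA5 was the one window of the 5 in which CpGs within 500 bases of the start were mostly intermediate, 36 of 68, against 0 of 9 at GATA2, 1 of 6 at GATA3, 2 of 11 at GATA4 and 0 of 22 at GATA6.

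At GATA4, whose start was taken at 11561717 on the plus strand of chromosome 8 (hg19), the levels varied most between libraries. The 4 CpGs from -27 to -12 averaged 24.0, 2.63 and 6.65% with SAM and 39.6, 7.81 and 0% in controls. Only 48 to 151 reads in all, over the 4 CpGs, stood behind each value. The CpG 7 bases after the start ranged from 31.3 to 100% between libraries, and the 10 CpGs from 414 to 541 had mean levels of 87.1 to 100%. Of these, the CpG at 414 was at 48.2% from 85 reads in SAM replicate 3. It was at 100% in SAM replicate 2 and control replicates 1 and 3, and the remaining libraries did not list it. The last CpG, 567 bases after the start, stood at 8.66%, and no CpG between 7 and 414 met the depth rule.

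The design asks whether 5 days of SAM changed methylation at these starts. For each gene the mean was taken over the CpGs listed in all 6 libraries, each weighted equally. In no gene did SAM and control libraries separate, where 9.43% of 10532 windows of 6 kb over the genome have groups that do not overlap. GATA2 (22 CpGs) stood at 16.4, 18.2 and 17.2% with SAM and 18.1, 17.9 and 16.6% in controls. GATA3 (20 CpGs) stood at 96.1, 95.6 and 95.9% with SAM and 94.2, 96.3 and 95.6% in controls. GATA6 (58 CpGs) stood at 70.9, 70.8 and 70.4% with SAM and 71.0, 70.6 and 70.3% in controls. These 3 windows thus held their level within 2.10 points over all 6 libraries. GATA5 (99 CpGs) stood at 52.0, 48.6 and 51.4% with SAM and 51.1, 54.7 and 51.9% in controls, with SAM replicate 2 the lowest and control replicate 2 the highest. GATA4 (8 CpGs) stood at 41.8, 39.7 and 36.7% with SAM and 58.7, 29.0 and 37.5% in controls, so both the highest and the lowest library were controls. GATA3 was highest, GATA6 next and GATA2 lowest in all 6 libraries, and GATA5 exceeded GATA4 in 5 of 6, control replicate 1 being the exception. The means cover only CpGs deep enough in every library, so this is not the order of the levels at the starts themselves.

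**Figure D2:**
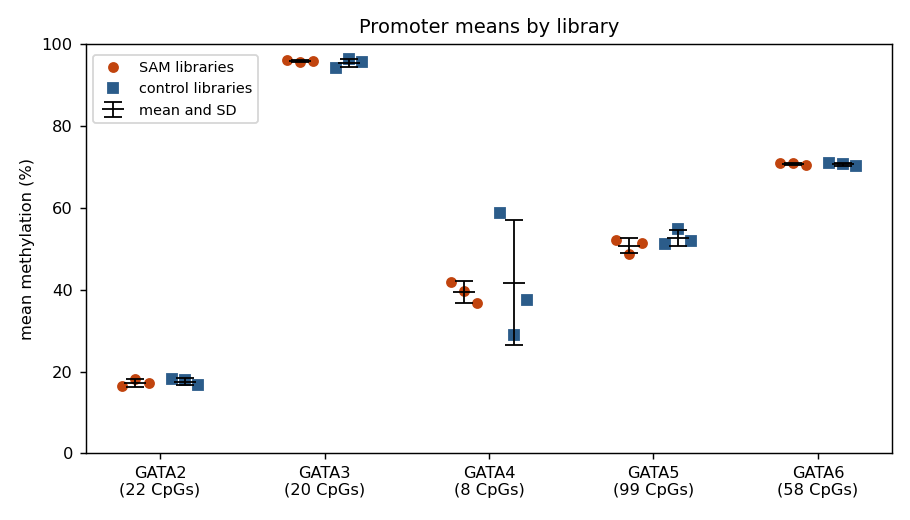
Mean methylation (percent, y axis) of the CpGs listed in all 6 libraries within 3 kb of each start, 1 point per library. Horizontal marks and bars are the mean and SD of the 3 libraries of a treatment. SAM and control points overlap in all 5 genes, and the control points of GATA4 spread from 29.0 to 58.7%.

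The groups overlapped in each gene, and each difference was smaller than the SD of the control libraries. At GATA3 and GATA5 it was larger than the SD of the SAM libraries (0.261 and 1.82 points). SAM minus control was -0.286 points at GATA2 (standard error 0.695, n = 3 each, exact two-sided permutation p = 0.80), 0.513 at GATA3 (standard error 0.634, exact permutation p = 0.60) and 0.0557 at GATA6 (standard error 0.259, exact permutation p = 0.90). It was -1.90 at GATA5, close to 1 SD of either group (SAM 50.7% ± 1.82, control 52.6% ± 1.92, SD, n = 3 each, standard error 1.53, exact permutation p = 0.50). At GATA4 it was -2.30 (standard error 8.95, exact permutation p = 0.90). The smallest p that 3 libraries against 3 allow is 0.10. A p above the threshold does not show equal levels. The size of a difference depended on which CpGs were averaged and how. With CpGs weighted by their reads it was -10.3 points at GATA2 (exact permutation p = 0.60), -7.39 at GATA4 (exact permutation p = 0.70) and 2.20 at GATA6 (exact permutation p = 1.0). Over the CpGs that each library listed for itself, which are not the same CpGs in each, it was 7.56 at GATA3 (exact permutation p = 0.40) and -3.84 at GATA6 (exact permutation p = 0.20). At GATA5 these 2 values were -1.85 and -1.83, close to that above. Coverage split the libraries into set A, holding SAM replicate 1 and control replicates 1 and 3, and set B, holding the other 3. This split was found from the coverage and is not given in the labels. Within sets A and B, in that order, the differences were -0.993 and -0.181 points at GATA2, 1.25 and -0.564 at GATA3, -6.25 and 9.23 at GATA4, 0.521 and -4.73 at GATA5, and 0.250 and -0.0273 at GATA6. Only GATA2 kept 1 sign in both sets. Without control replicate 1 the difference at GATA4 was 6.17 points. Leaving out 1 library also turned the sign at GATA2 (0.150 without SAM replicate 1 and 0.000176 without control replicate 1), at GATA3 (-0.0652 without control replicate 1) and at GATA6 (-0.0462 without SAM replicate 1, -0.00378 without SAM replicate 2 and -0.114 without control replicate 3), and at GATA5 it gave -2.65 to -0.820.

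Against other 6 kb windows with at least 10 common CpGs, GATA6 varied little. The range over its 6 libraries, 0.696 points, was larger than in 11.3% of 10532 windows, and its absolute difference between treatments exceeded that of 7.44% of them. GATA5 ranged over 6.13 points, close to the median of 6.56 points for the 2411 windows with a mean of 20 to 80%. In a limma fit to all windows that varied, no window passed (0 of 10519, with 464 or 4.41% at an unadjusted p under 0.05). Benjamini-Hochberg adjusted p from limma was 0.973 for GATA2, 0.941 for GATA3, 0.936 for GATA5 and 0.995 for GATA6. GATA4 had too few common CpGs for this fit. Of the 1 kb zones counted from each start, 17 of 30 held a common CpG and 16 entered the fit of 1 kb tiles, where again none passed (0 of 33581, with 1282 or 3.82% unadjusted). None of the 16 had an unadjusted p under 0.05.

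By zone, SAM and control separated in 1 of 17 (5.88%), where the share over all 1 kb tiles was 9.10%. That zone lay 3 to 2 kb before the GATA3 start. Its 7 CpGs averaged 91.0, 91.6 and 90.8% with SAM and 85.7, 89.9 and 90.5% in controls. All SAM libraries were above all controls, by 2.43 points in the mean (2.92 in set A and 1.27 in set B), with a limma adjusted p of 0.919. The largest zone difference at GATA2 was -1.36 points 2 to 3 kb after the start (limma adjusted p = 0.958), and at GATA4 -4.69 points in the kilobase before the start (0.956). At GATA5 it was -2.46 points in the first kilobase after the start (limma adjusted p = 0.929), with 0.123 in set A and -7.95 in set B. Weighted by reads that zone differed by -0.808 points and the next zone, 1 to 2 kb after the start, by -4.83, so which GATA5 zone differed most depended on the weighting. At GATA6 it was 0.411 points, also in the first kilobase (limma adjusted p = 0.926). The groups overlapped in these 4 zones. Among zones with common CpGs, levels ran from 0% (2 to 1 kb before) to 94.6% (2 to 3 kb after) at GATA2 and from 1.03% (first kilobase after) to 98.2% (2 to 3 kb after) at GATA6. They ran from 89.9% (3 to 2 kb before) to 98.8% (first kilobase after) at GATA3, from 13.5% (the kilobase before) to 67.7% (the kilobase after) at GATA4, and from 41.3% (the kilobase before) to 96.6% (2 to 3 kb after) at GATA5.

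Single CpGs were tested with a quasi-binomial logistic model fitted to all 490919 CpGs at which at least 1 group lay between 0 and 100%. Of the 385 CpGs, 314 entered it. In the other 71 each group stood at exactly 0 or 100%, 35 of them at GATA2 and 27 at GATA6. No CpG passed an adjusted p of 0.05, at the GATA starts or elsewhere (0%). At an unadjusted p under 0.05 there were 16 of 314 (5.10%), 5 higher and 11 lower with SAM, against 4.17% over all CpGs tested (2.11% higher and 2.06% lower). The share lies near the background. With 1 library left out, 27 to 3132 CpGs of the genome passed, with 1 of the GATA CpGs among them in 2 of the 6 cases. These were a GATA6 CpG 2178 bases after the start (19751594) without SAM replicate 2 (-42.3 points, adjusted p = 0.0181) and a GATA3 CpG 1076 bases after the start (8097743) without control replicate 2 (-40.0 points, adjusted p = 0.0283). The first was at 15.4% from 13 reads in SAM replicate 1 and at 100% in the other 4 libraries that listed it. SAM replicate 2 had not listed that CpG, so leaving it out removed none of the CpG's reads. The difference there was -42.3 points with all libraries too, and only the fit over all CpGs changed. The second was at 37.5% from 16 reads in SAM replicate 1, 82.5% in SAM replicate 3 and 89.8 to 100% in controls. Without SAM replicate 2, 1 of 309 GATA CpGs tested passed, where 1952 of 472619 over the genome did. Without control replicate 2, 1 of 308 passed, where 3132 of 470842 did. By edgeR's quasi-likelihood test 0 passed and 7 of 314 GATA CpGs were under 0.05 unadjusted, where 14420 of all 490919 (2.94%) were. By limma on log2 ratios 0 passed and 4 of 183 were, where 10287 of all 257696 (3.99%) were. Groups did not overlap at 15 of the 207 CpGs listed in all 6 libraries (7.25%), 10 with SAM above and 5 below, where the share over the genome was 4.90% (2.70% above and 2.19% below). The median difference of the 207 was 0 points and the median absolute difference 1.71. By gene the latter was 0.0227 points at GATA2, 0.921 at GATA3, 0.892 at GATA6, 3.45 at GATA5 and 10.9 at GATA4.

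**Figure D3:**
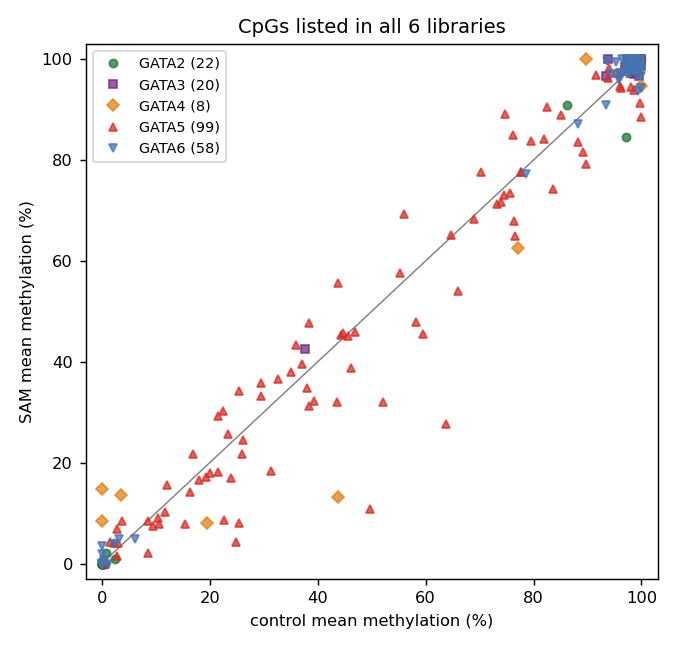
Mean methylation with SAM (percent, y axis) against control (percent, x axis) for the 207 CpGs listed in all 6 libraries, by gene, with the number of CpGs in the key and the line of equal levels. GATA2, GATA3 and GATA6 sit mostly in the corners, GATA5 lies along the line, and 2 GATA5 CpGs and 1 GATA4 CpG fall over 30 points below it.

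The CpGs with the smallest p that were listed in all 6 libraries are given for each gene, and their adjusted p was 1 in every case. The smallest of all was at GATA5, 202 bases after the start (chromosome 20, 61050824). The level there was 9.23, 0 and 22.99% with SAM and 31.8, 87.1 and 30.5% in controls, from 31 to 335 reads. All SAM libraries were below all controls, by 39.0 points in the mean (10.7% ± 11.6 against 49.8% ± 32.3, SD, n = 3 each, quasi-binomial unadjusted p = 0.00666 from the fit over all CpGs). Control replicate 2 stood far above the other controls, and without it the difference was -20.4 points. Its neighbour 198 bases after the start (61050828) was at 32.8, 0 and 50% with SAM and 44.1, 96.9 and 50.6% in controls, where the groups overlapped. The 4 CpGs from 198 to 222, which lie close enough to share reads and were singled out after their values were seen, averaged 17.5, 0 and 20.4% with SAM and 19.9, 74.9 and 28.1% in controls. That is -6.44 points in set A and -64.7 in set B. Most of the difference came with control replicate 2, which stood far above every other library, from 127 reads over the 4 CpGs. SAM replicate 2 was the lowest, from 139 reads. The 7 CpGs just before, described above, differed by -1.71 points in set A and -2.18 in set B.

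**Figure D4:**
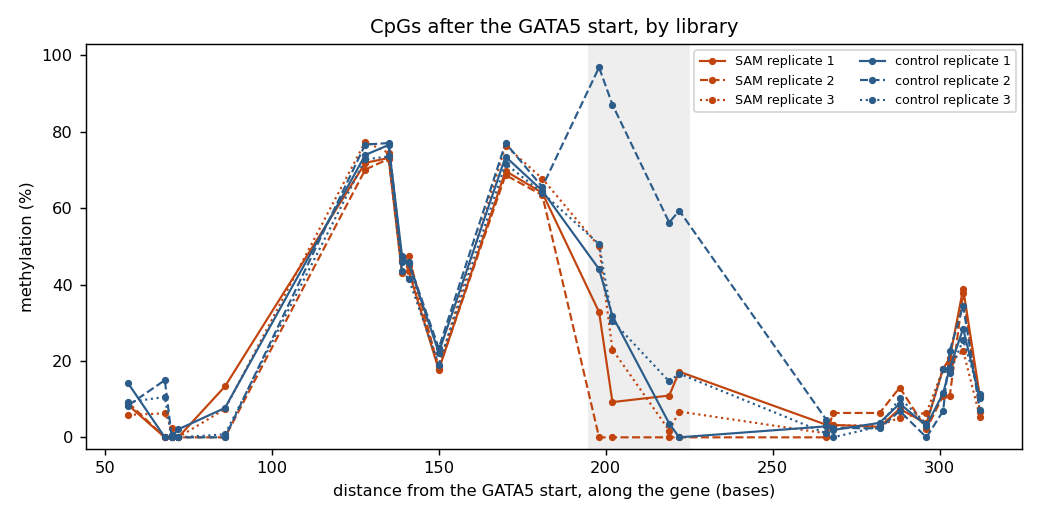
Methylation (percent, y axis) of the GATA5 CpGs listed in all 6 libraries from 57 to 312 bases after the start, against that distance in bases (x axis), 1 line per library. The grey band marks the 4 CpGs from 198 to 222, where control replicate 2 averaged 74.9% and SAM replicate 2 averaged 0%, and the 6 libraries run together from 128 to 181.

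The third GATA5 CpG, 1700 bases after the start (61049326), was at 98.6, 100 and 66.9% with SAM and at 100% in all 3 controls, so SAM replicate 3 stood lowest. At GATA4, the CpG at -19 (11561698) was at 26.7, 5.26 and 7.90% with SAM and 100, 31.3 and 0% in controls, from 12 to 38 reads. That at -12 (11561705) was at 33.3, 0 and 10.8% with SAM and 0% in all controls, and that 541 bases after the start (11562258) at 100% in 5 libraries and 69.2% in control replicate 2. Directions thus differed between GATA4 CpGs only 7 bases apart.

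At GATA3, GATA2 and GATA6 the named CpGs were mostly near 0 or 100%. The GATA3 CpGs at -2641 (8094026) and -2622 (8094045) were at 100% in 5 libraries and at 91.9 and 81.6% in control replicate 1. That 1348 bases after the start (8098015) was at 98.1, 97.4 and 94.7% with SAM and 98.9, 100 and 99.7% in controls, where the groups did not overlap. The GATA2 CpG 2758 bases after the start (128204676) was at 76.1, 100 and 77.9% with SAM and 100, 91.5 and 100% in controls. The other 2 at GATA2, at 2780 (128204654) and -548 (128207982), departed from 100% and 0% in control replicate 1 alone, at 92.7 and 2.03%. The GATA6 CpGs lay 2216, 2226 and 2266 bases after the start (19751632, 19751642 and 19751682). They were at 98.9 to 100% with SAM and 90.1 to 100% in controls, except that the last was at 82.6% in SAM replicate 1 and 100% in the other 5. In 6 of the 15 named CpGs the 5 other libraries were at one identical level, 0 or 100%, and 1 library departed from it.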

How the data were processed

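DNA from 6 PC-3 libraries was bisulfite converted and sequenced. Per the submitters' processing notes the tools were CASAVA 1.8.2, FastQC 0.10.0, Bismark 0.7.4 and methylKit 0.5.3, with hg19. The deposited files list, per the file headers, the read count (coverage) at each cytosine and the percent of its reads with C and with T. The lowest deposited count is 10. Here, methylated reads were recovered as coverage times percent, rounded, and both strands of a CpG were summed. Library means were compared by exact two-sided permutation tests. Single CpGs were tested by a quasi-binomial logistic model whose weights allow for differences between libraries at high depth, with overdispersion moderated by limma 3.58.1, 1 kb and 6 kb regions (at least 3 and 10 CpGs listed in all 6 libraries) by limma on mean percent, and alternatives used edgeR 4.0.16 (R 4.3.3, Python 3.11.15). P-values were adjusted by Benjamini-Hochberg over all features tested, threshold 0.05. The single-CpG test was also run on simulated data with less spread between libraries than estimated here, and the regional test on data with an assumed spread. These runs do not measure how often a change would be found at the real spread. CpGs named are the 3 with the smallest p in each window among those listed in all 6 libraries, and zones named are the highest, the lowest and the one that differed most. Members and lists were chosen with earlier results of these data known. Alternatives changed the coverage minimum, CpG set, weighting, window, test, replicate block and libraries used. Genes of GATA partners were not analysed here.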

Additional observations from a re-analysis of the deposited data

How the results depend on the processing

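For the 5 window means, 51 alternative values kept their direction and 13 reversed, but size was not kept. The 51 include the replicate block values, which equal the main differences by design. They also include GATA4 within 1 kb, which holds the same 8 CpGs as its full window. Those values could not reverse and add no support. Weighted by reads, differences were -10.3 points at GATA2, -7.39 at GATA4 and 2.20 at GATA6, and GATA3 stood at 7.56 over each library's own CpGs. Reversed differences were 0.0718 points within 5 kb at GATA2, -0.570 within 1 kb at GATA3, 2.08 over each library's own CpGs and 1.49 as the mean within coverage sets at GATA4, and -3.84 over each library's own CpGs and -0.201 within 5 kb at GATA6. Leaving out 1 library gave -0.755 to 0.150 at GATA2 (0.150 without SAM replicate 1, 0.000176 without control replicate 1), -0.0652 to 0.985 at GATA3 (lowest without control replicate 1), -8.67 to 6.17 at GATA4 (highest without control replicate 1), -2.65 to -0.820 at GATA5 and -0.114 to 0.235 at GATA6 (-0.0462 without SAM replicate 1, -0.00378 without SAM replicate 2, -0.114 without control replicate 3). The cause was not tested, and GATA4 had no value at 20 reads. No single-CpG, 1 kb or 6 kb alternative with all libraries called a feature except the logistic model with no overdispersion, which called 109111 CpGs (22.2%) and 72 of the 314 GATA CpGs (22.9%), 13 of the 15 named ones among them. That model takes no spread between libraries into account. Without 1 library the single-CpG test called 27 to 3132 CpGs, of 309622 to 472619 tested. Of the 199 to 309 GATA CpGs tested it called 0 to 1, and the regional tests called none. Methylation deviations did not correlate between libraries of equal replicate number (-0.00509, 0.00846 and -0.00791). Unequal numbers gave -0.02 to 0.0242. These values cannot show whether the libraries were paired, and SAM replicate 2 and control replicate 2 were both the shallowest of their groups. With the replicate block the differences were -0.286, 0.513, -2.30, -1.90 and 0.0557 points for GATA2 to GATA6 (exact sign-flip p of 1.0, 0.75, 0.75, 0.75 and 0.75, smallest possible 0.25), and limma with the block called 0 CpGs (11114 unadjusted). Depth limits GATA4 most, at a median of 12 to 36 reads per common CpG.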

Other observations

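A further GATA2 start in the RefSeq table lies outside the window described above, at -4610 from the start used. Most CpGs sequenced just upstream of it were partly methylated, unlike those at the GATA2 start used above. The CpG at 128212214 on chromosome 3 (hg19) was at 67.0, 70 and 67.7% with SAM (replicates 1, 2 and 3) and at 74.6 and 84.8% in controls 1 and 3. Its neighbour at 128212212 was at 47.2, 50 and 46.7% with SAM and 52.0 and 62.2% in the same controls. Control replicate 2 listed neither. In both, the SAM libraries lay below the controls that listed them, which were only controls 1 and 3. Both CpGs lie close enough to share reads, so they are not separate observations. The share of such separations over the genome was not computed. The CpG at 128212243 was at 18.8, 10.3 and 8.33% with SAM and 26.9 and 10.9% in controls, and that at 128212258 at 54.2, 68.4 and 54.6% with SAM and 63.9 and 54.6% in controls, where the groups overlapped. The CpGs at 128212177 and 128212185 fell short of the depth rule. That at 128212177 was at 45.45% in SAM replicate 3 and 0% in controls 1 and 2. That at 128212185 was at 41.67% in SAM replicate 3 and 61.54% in control replicate 1. Nearer this start, the CpG at 128212051 was at 0% in 5 libraries and 1.49% in control replicate 2. These CpGs were picked after their values were seen and no test was made of them.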
